A study of Mus musculus with 6 samples.

Results

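Semaphorins, plexins and neuropilins were compared between 2 populations of mouse cortical cells, purified through a ribosome tag in the S100a10 and the Glt25d2 line. Members were taken by name. A probe set, the group of probes that reads 1 transcript, was a member if the array's annotation gave it exactly 1 gene and that symbol began with Sema, Plxn or Nrp followed by its family number. The rule found 79 of 45037 probe sets, naming 32 of 18193 genes. They held 20 semaphorins, the ligands, and 11 receptors, made up of 9 plexins and 2 neuropilins. The symbol Plxna4os1 also met the rule, but it names an antisense RNA at the Plxna4 gene, and its 1 probe set lay between 7.6 and 12.6 in all arrays.

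The 6 samples were 3 biological replicates of each line by their titles, each on 1 Affymetrix array. In translating ribosome affinity purification (TRAP), an artificial chromosome that carries a driver gene's control regions puts a tagged ribosomal protein into the cells that use that gene, and their ribosomes are pulled from the lysate with the messenger RNA they carry. The S100a10 group came from line ES691 and the Glt25d2 group from line DU9; Glt25d2 is now named Colgalt2. Both groups were cortex of untreated transgenic mice whose FVB background had been crossed to C57BL/6 for 3 to 5 generations, and ages were not given in the sources used here. Each driver is represented by a single line, and the series text states that the S100a10 transgene also marks some cells that are not neurons. The question put by the series is how these 2 types of cortical pyramidal cell differ.

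Semaphorins are a family of secreted and membrane-bound guidance proteins that share a domain of the same name. Plexins are their main receptors and pass the signal to small GTPases and the cytoskeleton, while most secreted class 3 semaphorins first bind a neuropilin, which holds the ligand to a plexin. In the cortex the family is known for steering axons and migrating neurons, shaping dendrites and removing synapses, and it also acts in blood vessels and meninges.

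Values are the authors' deposited GCRMA intensities on a linear scale, and a difference is the S100a10 level less the Glt25d2 level in log2 units, fitted with limma and adjusted over all 21291 probe sets kept (Benjamini-Hochberg, threshold 0.05). A probe set was kept if its mean reached 50 in at least 1 group, and a gene was read by its kept probe set with the highest mean level. The arrays were not on 1 scale: median intensity was 20.4 to 21.3 in Glt25d2 and 35.5 to 35.8 in S100a10, and the median gene differed by 0.56, or by -0.02 after quantile normalization of the 6 arrays and -0.21 after centring each on its median. Calls toward S100a10 can therefore depend on the scaling. The driver S100a10 was 2.25 higher in its own line (2.01 after quantile normalization, 1.48 after centring) and Colgalt2 6.51 higher in Glt25d2 (a fitted -6.51), each with arrays that did not overlap. All 6 neuronal markers listed were kept and 2 were higher in S100a10, Rbfox3 at 0.53 (-0.24 after centring) and Slc17a7 at 2.12 (1.34 after quantile normalization). After centring 1 neuronal marker was higher in S100a10 and 3 were higher in Glt25d2 (16.4% and 31.3% of all genes). Of other markers as deposited, 0 of 6 oligodendrocyte genes kept were higher in S100a10 and 2 in Glt25d2, against 2 and 0 of 5 for their precursors, 2 and 2 of 6 for astrocytes and 2 and 1 of 7 for interneurons. After quantile normalization these counts were 0 and 3 for oligodendrocytes and 0 and 3 for their precursors. They stayed at 2 and 2 for astrocytes and 2 and 1 for interneurons. The precursors' balance turned, while the shares of all genes also shifted. As deposited 44.4% of all genes were higher in S100a10 and 4.5% in Glt25d2, and after quantile normalization 18.4% each. In this kind of bulk sample, fewer cells of a type and less RNA per cell cannot be told apart.

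Glt25d2 replicate 3 stood apart for many members, and not for this family alone. Its intensity was less than that of replicates 1 and 2, taken as their mean, by more than 4-fold for 9 of the 28 ligand and receptor genes that were kept, and it was more than 4-fold higher for 0. Among all 11821 genes read the counts were 996 below and 2 above, or 8.43% below. Genes outside the family showed such a gap too, such as Nrcam at 32.1-fold, Slc1a3 at 16.4-fold and Syt1 at 5.76-fold. Others did not, such as Snap25 and Rbfox3, where the same ratio was 0.854 and 1.02. Leaving Glt25d2 replicate 3 out changed several results, so values with and without it are given. A second feature touched the errors: at least 2 of the 3 Glt25d2 arrays held exactly the same value in 23.4% of the probe sets kept, against 0.207% for S100a10, so that the Glt25d2 spread may be understated.

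Of the 31 ligands and receptors, 28 were kept, and 11 of these were higher in S100a10, 1 was higher in Glt25d2 and 16 did not pass. Over all 11821 genes read, 44.4% were higher in S100a10 and 4.5% in Glt25d2, so the family's count by itself did not set it apart. By role, 7 of 18 semaphorins and 4 of 10 receptors were higher in S100a10, and 1 semaphorin and 0 receptors were higher in Glt25d2. The groups' arrays did not overlap for 17 genes higher in S100a10 and 1 higher in Glt25d2, where 55.9% and 7.9% of all genes did so. The median difference was 0.76 for semaphorins and 1.01 for receptors, or 0.20 and 0.45 above the median gene; without Glt25d2 replicate 3 it was 0.43 and 0.44, or -0.08 and -0.07 relative to the median gene. After quantile normalization 4 members were higher in S100a10 (Sema3b, Sema3d, Sema4c and Plxnd1) and 2 in Glt25d2 (Sema6a and Plxna4), with 18.4% of all genes in either direction. Centring gave 6 and 2 members (16.4% and 31.3% of all genes). Without Glt25d2 replicate 3, quantile normalization gave 6 members higher in S100a10 and 10 in Glt25d2 (23.7% and 23.0% of all genes), and centring gave 6 and 9 (19.8% and 38.3%). Of the 44 member probe sets kept, 15 were higher in S100a10 and 1 in Glt25d2 as deposited, against 44.2% and 4.39% of all probe sets.

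**Figure D1:**
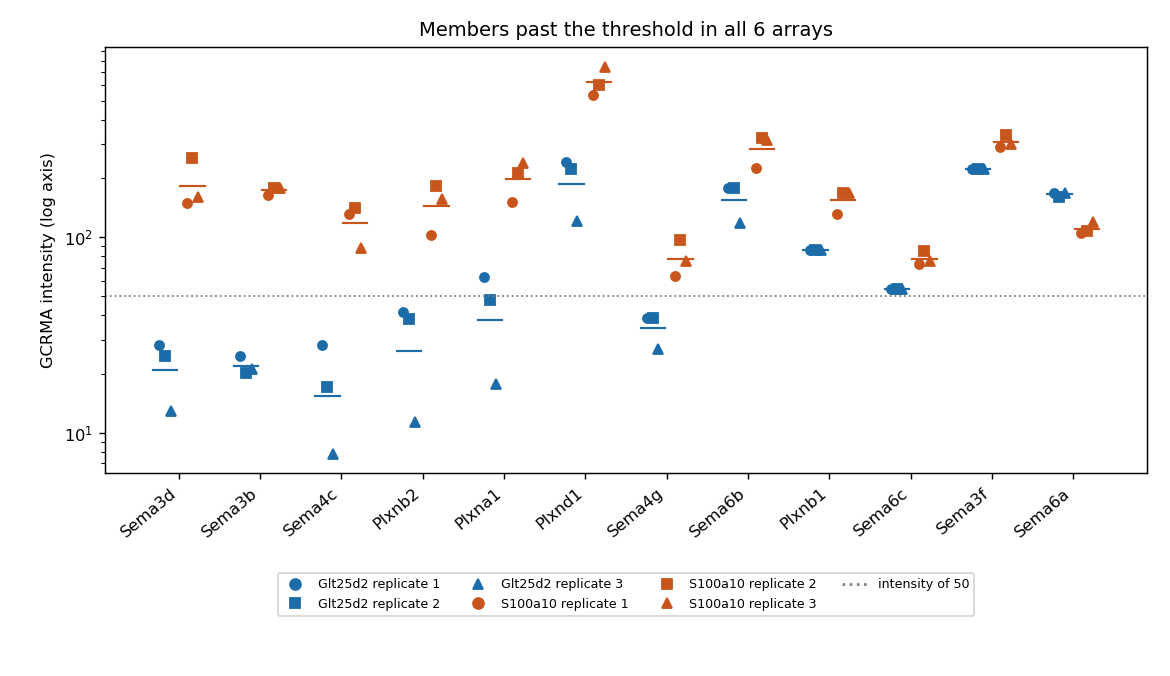
GCRMA intensity (log axis) of the 12 members past the threshold in the fit of all 6 arrays, 1 point for each array, with a line at the mean of the log2 values of each group and a dotted line at 50. Orange S100a10 points lie above blue Glt25d2 points for 11 genes and below them for Sema6a, and Glt25d2 replicate 3, the blue triangle, is the lowest array for Sema3d, Sema4c, Plxnb2, Plxna1, Plxnd1, Sema4g and Sema6b.

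Among the secreted class 3 semaphorins, Sema3b and Sema3d were higher in S100a10 under every scaling tried, whereas Sema3c and Sema3e were higher in Glt25d2 replicates 1 and 2 than in any S100a10 array. Sema3d, Sema3a, Sema3e and Sema3c are found in this order on mouse chromosome 5, with Sema3a next to Sema3d, and with Hgf and Cacna2d1 among the protein-coding genes between Sema3e and Sema3c. Because these related genes of 1 chromosome gave different patterns, the 250 bases before the start of each are printed here from RefSeq (GRCm38.p6, plus strand). Sema3d is at chr5:12382916-12383165, Sema3a at chr5:13396534-13396783, Sema3e at chr5:14025026-14025275 and Sema3c at chr5:17574566-17574815. Capitals mark the GC box GGGCGG and the CCAAT box CCAAT, read on both strands and so also as CCGCCC and ATTGG.
Sema3d: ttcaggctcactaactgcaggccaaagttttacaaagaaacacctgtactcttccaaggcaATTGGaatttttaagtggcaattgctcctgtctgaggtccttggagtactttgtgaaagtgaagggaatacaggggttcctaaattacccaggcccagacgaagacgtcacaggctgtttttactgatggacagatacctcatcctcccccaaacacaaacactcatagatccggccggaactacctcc
Sema3a: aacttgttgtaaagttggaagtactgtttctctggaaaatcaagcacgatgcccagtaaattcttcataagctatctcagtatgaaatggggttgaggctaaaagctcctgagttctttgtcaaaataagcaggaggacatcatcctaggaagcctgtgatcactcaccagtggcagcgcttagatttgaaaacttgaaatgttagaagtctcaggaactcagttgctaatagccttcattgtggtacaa
Sema3e: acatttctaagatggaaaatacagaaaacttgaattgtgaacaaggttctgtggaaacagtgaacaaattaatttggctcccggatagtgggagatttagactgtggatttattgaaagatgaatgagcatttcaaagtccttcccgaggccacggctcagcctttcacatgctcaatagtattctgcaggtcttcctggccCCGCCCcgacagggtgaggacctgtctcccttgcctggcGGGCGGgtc
Sema3c: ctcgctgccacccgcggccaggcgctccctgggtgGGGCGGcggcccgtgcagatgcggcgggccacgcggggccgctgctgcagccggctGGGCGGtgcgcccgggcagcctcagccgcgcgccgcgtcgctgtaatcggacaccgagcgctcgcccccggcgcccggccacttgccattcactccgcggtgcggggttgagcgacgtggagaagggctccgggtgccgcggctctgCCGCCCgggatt

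The Sema3c window held 3 GC boxes and the Sema3e window 2, while the windows of Sema3d and Sema3a held 0; Sema3d held 1 CCAAT box. A GC box was found in 32.7% of all 32851 promoter windows of this length and a CCAAT box in 33.8%. None of the 4 windows held TATAAA or CACGTG on either strand, which 12.4% and 6.02% of all windows do. G and C made up 78.4% of the Sema3c window, 48.0% of Sema3e, 46.8% of Sema3d and 40.8% of Sema3a, against a median of 52.4%. These matches describe the letters only.

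Sema3d, which acts on growing axons and vessels, had intensities of 28.3, 24.8 and 12.9 in Glt25d2 replicates 1 to 3 and of 150, 256 and 161 in S100a10. All Glt25d2 arrays lay under 50 and all S100a10 arrays at least at 150. The difference was 3.14 (SE 0.36, limma adjusted p = 0.00113), or 2.36 after quantile normalization and 2.79 without Glt25d2 replicate 3. Measured against 50, the level was at least 3.67-fold higher in S100a10; this and the other bounds below hold for the deposited scaling.

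Sema3b, a ligand known to act through neuropilin 2, had 24.8, 20.2 and 21.1 in Glt25d2 and 165, 178 and 179 in S100a10. The arrays of each group lay close together, and the bound was at least 3.48-fold. The difference was 2.99 (SE 0.12, limma adjusted p = 2.4e-05), or 2.16 after quantile normalization. A second Sema3b probe set was higher by 1.97 (SE 0.16, limma adjusted p = 0.000317), or 1.16 after quantile normalization, at lower levels, 16.1 to 20.9 in Glt25d2 and 60.4 to 79.4 in S100a10.

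Most listed genes of fibroblasts, meninges and mural cells were also higher in S100a10. Of 10 listed, 9 were kept, 8 of these were higher in S100a10 and 1, Rgs5, was lower (44.4% and 4.5% of all genes). After quantile normalization the counts were again 8 and 1 (18.4% of all genes each way). The summed intensity of the 10 was 737 to 925 in Glt25d2 arrays and 8889 to 11480 in S100a10 arrays. In every Glt25d2 array 7 of the 10 lay under 50, and those of them that were kept passed the filter through S100a10 alone. The collagen Col1a2 had means of 16.8 and 1867, and Col1a1 stayed under the limit with means of 9.7 and 45.0. The part of such cells in the levels of Sema3b, Sema3d and the other members was not tested.

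Sema3e, known as a ligand of plexin D1 that needs no neuropilin, had 966, 741 and 69.3 in Glt25d2 and 130, 203 and 154 in S100a10. Glt25d2 replicates 1 and 2 were the highest arrays and replicate 3 the lowest. In all 6 arrays the difference of -1.20 (SE 1.02) did not pass (limma adjusted p = 0.366). Without Glt25d2 replicate 3 it was -2.41 (limma adjusted p = 0.000183), and -3.03 with quantile normalization as well. The second kept probe set followed the same order, with 262, 209 and 59.8 against 64.1, 99.7 and 80.5, and differed by -1.55 without that array (limma adjusted p = 0.00103); with all arrays it passed after quantile normalization, at -1.76 (limma adjusted p = 0.034).

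Sema3c, known to attract cortical axons, repeated this pattern with 797, 708 and 55.8 in Glt25d2 and 154, 249 and 145 in S100a10. The difference was -0.84 (SE 1.07, limma adjusted p = 0.542) with all arrays. It was -2.09 without Glt25d2 replicate 3 (limma adjusted p = 0.000553) and -2.71 with quantile normalization as well. In the fit without that array 55.0% of all genes were higher in S100a10 and 6.17% in Glt25d2; Sema3c, Sema3e, Sema6a, Sema6d and Nrp1 were among the latter, 5 of the 28 members, while 13 were higher in S100a10.

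Sema3a, the ligand through which the family's growth cone collapse was first studied, had 314, 314 and 53.3 in Glt25d2 and 319, 352 and 381 in S100a10. Apart from Glt25d2 replicate 3 all arrays lay within 314 to 381, and the difference of 1.01 (SE 0.72) did not pass (limma adjusted p = 0.288); without that array it was 0.16 (limma adjusted p = 0.315), and -0.50 with quantile normalization as well (limma adjusted p = 0.0241). Sema3f, which signals through neuropilin 2 in spine removal, was higher in S100a10 by 0.46 (SE 0.10, limma adjusted p = 0.0118), but the sign turned after quantile normalization (-0.29) and centring (-0.31). Its 3 Glt25d2 arrays held the same value, 223, so that no spread was measured there, and the S100a10 arrays had 289, 334 and 300. This probe set is of the type marked _x_at, which can also bind other transcripts, and both other Sema3f probe sets lay under 50 throughout. Sema3g, known from vessels, also lay under 50 throughout, at 16.9 to 17.5 in Glt25d2 and 5.41 to 7.03 in S100a10.

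Of 6 class 4 semaphorins, which span the membrane, 5 were kept, and Sema4c and Sema4g were higher in S100a10. Sema4c, a ligand of plexin B2, had 28.0, 17.1 and 7.81 in Glt25d2 and 131, 141 and 88.5 in S100a10, with no overlap. It differed by 2.92 (SE 0.49, limma adjusted p = 0.0045) and by 2.18 after quantile normalization, and was at least 2.36-fold higher against 50. Sema4g, another ligand of plexin B2, had 38.6, 38.6 and 26.9 against 63.6, 96.7 and 75.6. Its difference of 1.18 (SE 0.22, limma adjusted p = 0.00726) was 0.28 after quantile normalization and 0.41 after centring, and neither passed (limma adjusted p = 0.356 and 0.169).

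The other class 4 ligands varied with the probe set or the array. Sema4d, the ligand of plexin B1, did not pass with its brighter probe set at 1.26 (SE 0.45, limma adjusted p = 0.0662), whose Glt25d2 arrays had 64.3, 53.7 and 23.7 and S100a10 arrays 72.0, 104 and 148. Its dimmer one, at 15.5 to 22.9 against 71.0 to 92.1, was higher in S100a10 by 2.04 (SE 0.20, limma adjusted p = 0.000612) and by 1.23 after quantile normalization. Sema4a, known from immune cells and retina, had 437, 382 and 129 in Glt25d2 and 486, 849 and 801 in S100a10; at 1.31 (SE 0.52) it did not pass (limma adjusted p = 0.0838), and it did without Glt25d2 replicate 3 at 0.76 (limma adjusted p = 0.0375). Without that array it was 0.17 with quantile normalization and 0.01 with centring, and neither passed (limma adjusted p = 0.64 and 0.978). Sema4f was bright in both groups apart from 1 array, with 1595, 1493 and 209 in Glt25d2 and 1434, 1979 and 2320 in S100a10. Its difference fell from 1.24 to 0.28 without that array, and neither passed (limma adjusted p = 0.258 and 0.284). Sema4b reached 50 in 1 array only, S100a10 replicate 2 at 54.5.

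Class 6 ligands, membrane proteins that bind plexins of the A group directly, did not move together. Sema6a was the only member higher in Glt25d2 with all 6 arrays as deposited, at 168, 161 and 168 against 105, 108 and 120 in S100a10, a difference of -0.58 (SE 0.10, limma adjusted p = 0.00465), or -1.43 after quantile normalization. Its second kept probe set pointed the other way at 0.93 (SE 0.62, limma adjusted p = 0.262), with 51.2, 41.8 and 10.2 against 48.3, 60.9 and 51.2, and the mean of both gave 0.17. Sema6a was the 1 gene of 12 with several kept probe sets in which these differed in sign. Sema6d, a ligand of plexin A1, had 608, 798 and 106 in Glt25d2 and 336, 437 and 400 in S100a10. It differed by 0.06 (SE 0.77, limma adjusted p = 0.951) and, without Glt25d2 replicate 3, by -0.84 (limma adjusted p = 0.00631).

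Sema6b and Sema6c were higher in S100a10 as deposited only. Sema6b had 178, 178 and 118 against 227, 322 and 314, a difference of 0.87 (SE 0.23, limma adjusted p = 0.0239), which was 0.072 after quantile normalization and did not pass without S100a10 replicate 2 or 3 (limma adjusted p = 0.0809 and 0.0853). Sema6c had 54.4 in every Glt25d2 array and 72.8, 85.2 and 76.1 in S100a10, a difference of 0.52 (SE 0.10, limma adjusted p = 0.00828) that turned to -0.42 after quantile normalization and -0.25 after centring. In class 5, whose members carry thrombospondin repeats, Sema5a at 0.58 (limma adjusted p = 0.441) and Sema5b at 0.65 (limma adjusted p = 0.0706) did not pass, and both turned sign after quantile normalization. With quantile normalization and without Glt25d2 replicate 3 both passed toward Glt25d2, at -0.94 and -0.46 (limma adjusted p = 0.00889 and 0.0408). With centring instead, Sema5a passed at -0.84 (limma adjusted p = 0.0115) and Sema5b did not. Sema7a, which is anchored to the membrane by a lipid and acts through integrins and plexin C1, had 1325, 1114 and 460 in Glt25d2 and 1092, 1268 and 1208 in S100a10. It did not pass at 0.43 (SE 0.41, limma adjusted p = 0.409), and without Glt25d2 replicate 3 it was -0.033. Without that array it passed toward Glt25d2 with quantile normalization at -0.50 and with centring at -0.78 (limma adjusted p = 0.0292 and 0.00356).

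**Figure D2:**
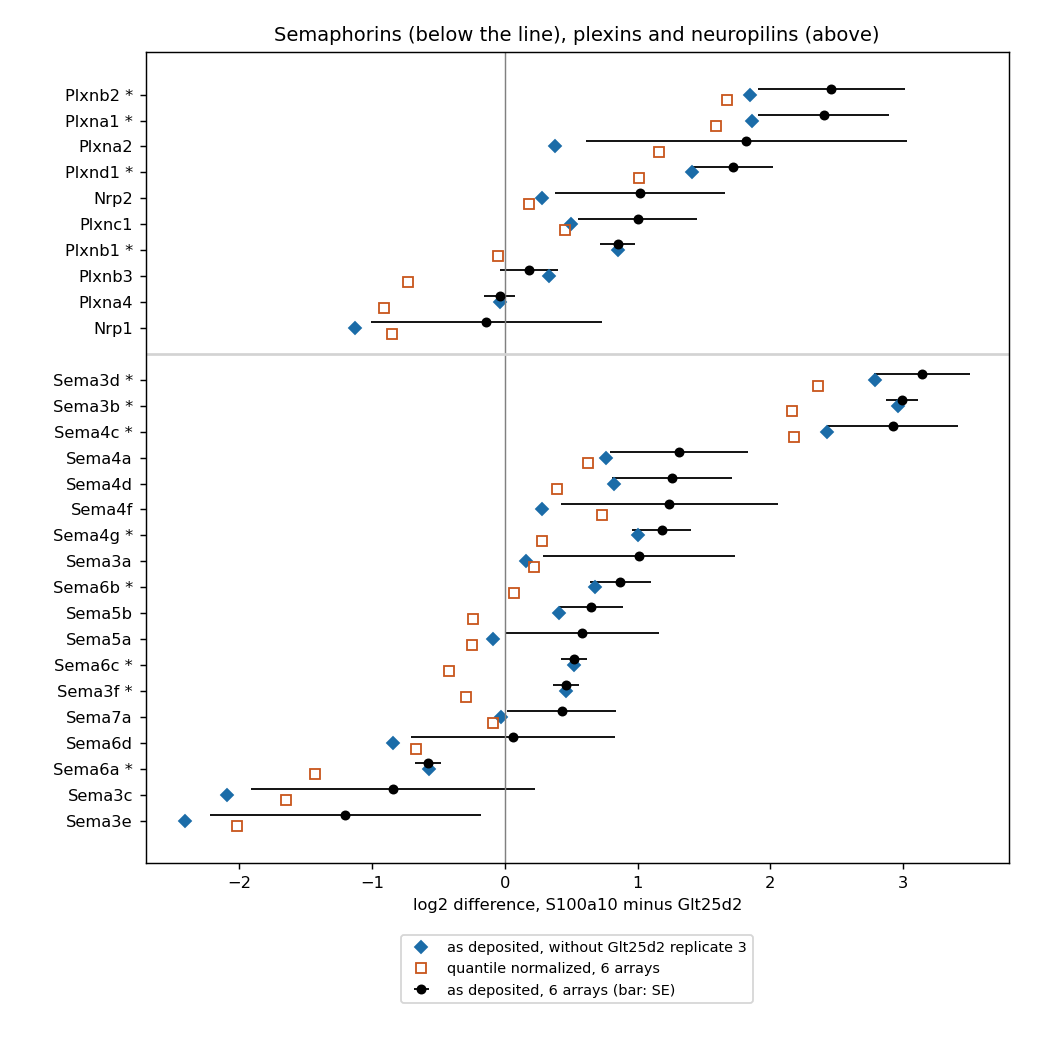
Log2 difference (S100a10 minus Glt25d2) of the 28 kept genes, semaphorins below the line and receptors above it, with stars for those past the threshold in the fit of all 6 arrays. Black points with SE bars are that fit, blue diamonds leave out Glt25d2 replicate 3 and orange squares are quantile normalized. Sema3c and Sema3e lie at -2.09 and -2.41 without the array. Sema3b, Sema3d, Sema4c and Plxnd1 passed above 0 in all 3 fits and Sema6a below 0. Other genes, such as Plxna1, Plxnb2 and Plxna2, also lie above 0 in all 3 but did not pass in each.

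Among the receptors, Plxnd1, which binds Sema3e and is known from vessels and cortical projection neurons, was higher in S100a10 in every fit that was run. It had 243, 224 and 121 in Glt25d2 and 534, 598 and 746 in S100a10, so that the groups lay well apart. The difference was 1.72 (SE 0.30, limma adjusted p = 0.00541), 1.01 after quantile normalization (limma adjusted p = 0.0235) and 0.66 to 1.91 over all 19 alternatives, with adjusted p up to 0.0374. Its ligand Sema3e had its highest arrays, replicates 1 and 2, and its lowest, replicate 3, in Glt25d2. With all 6 arrays Sema3e did not pass (-1.20, limma adjusted p = 0.366). Of 8 endothelial markers listed, 2 were kept: Esam was lower in S100a10 at -0.97, and Cldn5 did not pass at -1.72, though it did after quantile normalization at -2.54. The list summed to 255 to 723 in Glt25d2 arrays, lowest in replicate 3, and to 186 to 221 in S100a10 arrays. Of the markers not kept, Cdh5 had the higher mean in S100a10, 29.8 against 13.4 in Glt25d2. Tek and Emcn had the lower mean in S100a10, 8.95 against 36.2 and 6.63 against 36.9. Pecam1 and Flt1 overlapped between the groups, with means of 6.49 against 6.33 and 33.6 against 33.4. The part of endothelial cells in the Plxnd1 level was not tested.

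In the A group, the plexins that join neuropilins in the class 3 receptor, Plxna1 was higher in S100a10. It had 62.5, 47.7 and 17.8 in Glt25d2, 2 of them under 50, and 152, 214 and 241 in S100a10, a difference of 2.40 (SE 0.49, limma adjusted p = 0.0101). After quantile normalization it was 1.59 (limma adjusted p = 0.0502) and after centring 1.63 (limma adjusted p = 0.0342). Plxna2, a receptor of Sema6a as well, had 334, 361 and 17.2 in Glt25d2 and 368, 475 and 525 in S100a10. Its value in Glt25d2 replicate 3 was 20.1-fold under the mean of replicates 1 and 2, the largest such gap among the 28 genes, and the other 3 Plxna2 probe sets lay 6.1- to 15.5-fold below. The difference fell from 1.82 (SE 1.21, limma adjusted p = 0.26) to 0.38 without that array (limma adjusted p = 0.103). Plxna4, a receptor of Sema3a and Sema6a, had 127 in all 3 Glt25d2 arrays and 108, 130 and 135 in S100a10. It differed by -0.04 (limma adjusted p = 0.785), and by -0.91 after quantile normalization (limma adjusted p = 0.00649). Both probe sets of Plxna3 lay under 50 throughout, at 28.6 to 39.9 in the S100a10 arrays for the brighter one.

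Of the B group, receptors of class 4 semaphorins, Plxnb1 and Plxnb2 were higher in S100a10. Plxnb2 had 41.6, 38.0 and 11.4 against 103, 184 and 157, was at least 2.87-fold higher against 50 and differed by 2.46 (SE 0.55, limma adjusted p = 0.0138). It did not pass after quantile normalization, at 1.67 (limma adjusted p = 0.0732), but did after centring at 1.69 (limma adjusted p = 0.0437), and it did not pass without S100a10 replicate 2 or 3 (limma adjusted p = 0.0563 and 0.0576). Plxnb1 had 85.9 in each Glt25d2 array and 131, 168 and 168 in S100a10. Its difference of 0.85 (SE 0.13, limma adjusted p = 0.00327) was -0.051 after quantile normalization and 0.081 after centring. A dimmer Plxnb1 probe set, at 5.96 to 26.4 against 57.2 to 65.6, differed by 1.99 (SE 0.59, limma adjusted p = 0.0357), but did not pass after quantile normalization at 1.28 or centring at 1.22 (limma adjusted p = 0.184 and 0.13). Sema4c and Sema4g, ligands of plexin B2, were higher as deposited in the same group as Plxnb2, as were 44.4% of all genes. After quantile normalization only Sema4c of these passed, at 2.18, while Sema4g was 0.28. Plxnb3 stayed near the limit, with 39.3, 39.3 and 53.4 against 38.7, 60.3 and 51.4 (0.18, limma adjusted p = 0.516). Plxnc1, the plexin that binds Sema7a, had 916, 829 and 310 in Glt25d2 and 1060, 1153 and 1547 in S100a10, with no overlap; at 1.0 (SE 0.45) it did not pass (limma adjusted p = 0.115), nor at 0.50 without Glt25d2 replicate 3 (limma adjusted p = 0.0514).

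The 2 neuropilins gave different values. Nrp1, the co-receptor of Sema3a that also binds vascular growth factors, had 912, 929 and 117 in Glt25d2 and 295, 616 and 411 in S100a10. Replicates 1 and 2 of Glt25d2 were again the highest arrays and replicate 3 the lowest, and so it was for all 3 kept Nrp1 probe sets. The difference was -0.14 (SE 0.87, limma adjusted p = 0.904), and -1.13 without that array (limma adjusted p = 0.0143), where all 3 probe sets passed, at -1.42 to -1.13. Nrp2, the co-receptor of Sema3b and Sema3f, had 118, 118 and 25.4 in Glt25d2 and 114, 160 and 160 in S100a10, and did not pass at 1.02 (SE 0.64, limma adjusted p = 0.233). One of its 3 kept probe sets passed, with 68.1, 104 and 50.3 against 109, 144 and 140 (0.87, SE 0.29, limma adjusted p = 0.0498), and this one was -0.03 after quantile normalization.

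A difference between 2 genes of the same array does not change with a common scale factor. Nrp1 minus Nrp2 on the log2 scale was 2.95, 2.98 and 2.21 in Glt25d2 and 1.37, 1.94 and 1.36 in S100a10. For the probe set by which each gene was read, every Glt25d2 array thus lay above every S100a10 array, replicate 3 included. The means were 2.71 ± 0.44 and 1.56 ± 0.33 (SD, n = 3 each), a change of -1.16. An exact permutation test, 2-sided, gave p = 0.1, the smallest that 3 against 3 arrays allow, and 0.2 after adjustment over the 2 pairs tested, so this test could not pass 0.05 with 3 arrays a group. The separation depends on the Nrp2 probe set. In Glt25d2 replicate 3 the one used had 25.4, and the other kept ones had 50.3 and 30.8. With either of these, replicate 3 does not lie above every S100a10 array. Sema3a minus Sema3f was 0.49, 0.49 and -2.07 in Glt25d2 and 0.14, 0.08 and 0.34 in S100a10 (exact permutation p = 1), and its change turned from 0.55 to -0.30 without Glt25d2 replicate 3. Another planned pair, Plxna4 and Plxna3, was not tested because Plxna3 was not kept.

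**Figure D3:**
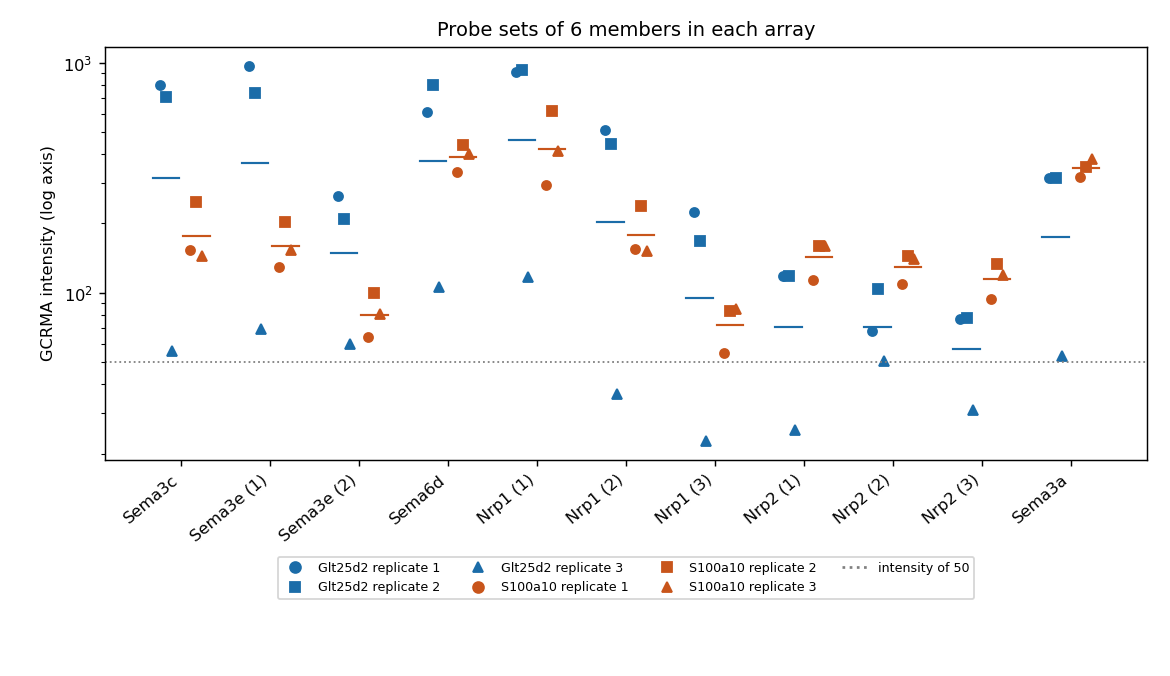
GCRMA intensity (log axis) of the kept probe sets of Sema3c, Sema3e, Sema6d, Nrp1, Nrp2 and Sema3a in each array, numbered within a gene from the brightest in Glt25d2, with a line at the mean of the log2 values of each group. Glt25d2 replicates 1 and 2 lie above all S100a10 arrays for Sema3c, Sema3e, Sema6d and Nrp1, and Glt25d2 replicate 3, the blue triangle, is the lowest array of every probe set drawn.

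Other genes of semaphorin signalling were counted over a list of 63 partners and intracellular mediators, of which 49 were kept. Of these 25 were higher in S100a10, 2 were higher in Glt25d2 and 22 did not pass, with a median difference of 0.74. After quantile normalization 12 were higher in S100a10 and 3 in Glt25d2, and after centring 10 and 12, with a median of -0.03. Of all genes 44.4% and 4.5% were higher in S100a10 and Glt25d2 as deposited. These shares were 18.4% each after quantile normalization, and 16.4% and 31.3% after centring, with a median of -0.21. The balance of all genes thus turned with centring as well. As deposited, among 12 co-receptors and other binding partners 5 were higher in S100a10 and 0 in Glt25d2, and among 37 intracellular genes 20 and 2. The 8 with the largest differences were all higher in S100a10. Mical1 and Mical2, enzymes that oxidise actin below plexins, differed by 2.73 and 1.86, or 1.87 and 1.15 after quantile normalization. Rras, a GTPase that plexins switch off, differed by 2.55, with means of 346 in Glt25d2 and 2053 in S100a10, and by 2.02 after quantile normalization.

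The growth factor Vegfa, a ligand of Nrp1, differed by 2.23, Tyrobp, the microglial adaptor below a plexin A1 complex, by 2.33, and Gipc1, a scaffold that binds plexin D1 and neuropilin 1, by 1.35; they stayed at 1.34, 1.61 and 0.81 after quantile normalization and passed. Itgb1, an integrin chain through which Sema7a acts, at 1.51 and Micall1 at 1.45 did not pass after quantile normalization, at 0.65 and 0.60. Beside Tyrobp, the microglial list summed to 306 to 484 in Glt25d2 arrays and 519 to 812 in S100a10 arrays, with 1 of 4 kept genes, Tmem119, higher in S100a10 (means of 4.17 and 205) and 0 higher in Glt25d2. The means of Itgam and P2ry12 were at most 10.2 in both groups, and the part of microglia was not tested. Toward Glt25d2, Rnd1, a GTPase that binds plexins, differed by -0.62 and Gap43, a growth cone protein, by -0.98, and both were lower in S100a10 after quantile normalization as well, at -1.32 and -1.22. The collapsin response mediators, which carry the Sema3a signal, depended on the scaling: Crmp1 was higher by 0.35 and Dpysl4 by 0.50 as deposited, and Dpysl2 at 0.14 and Dpysl3 at 0.33 did not pass. After quantile normalization Crmp1 was 0.05 and Dpysl4 -0.19 and neither passed, and after centring Crmp1 was lower at -0.41 (limma adjusted p = 0.0342).

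The cell adhesion proteins that join neuropilins also depended on Glt25d2 replicate 3. Chl1 differed by -0.01 (limma adjusted p = 0.991) and by -0.98 without that array (limma adjusted p = 0.00103), Nrcam by 1.21 and -0.46 (limma adjusted p = 0.501 and 0.0436), and L1cam by 1.40 and 0.14 (limma adjusted p = 0.321 and 0.635).

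**Figure D4:**
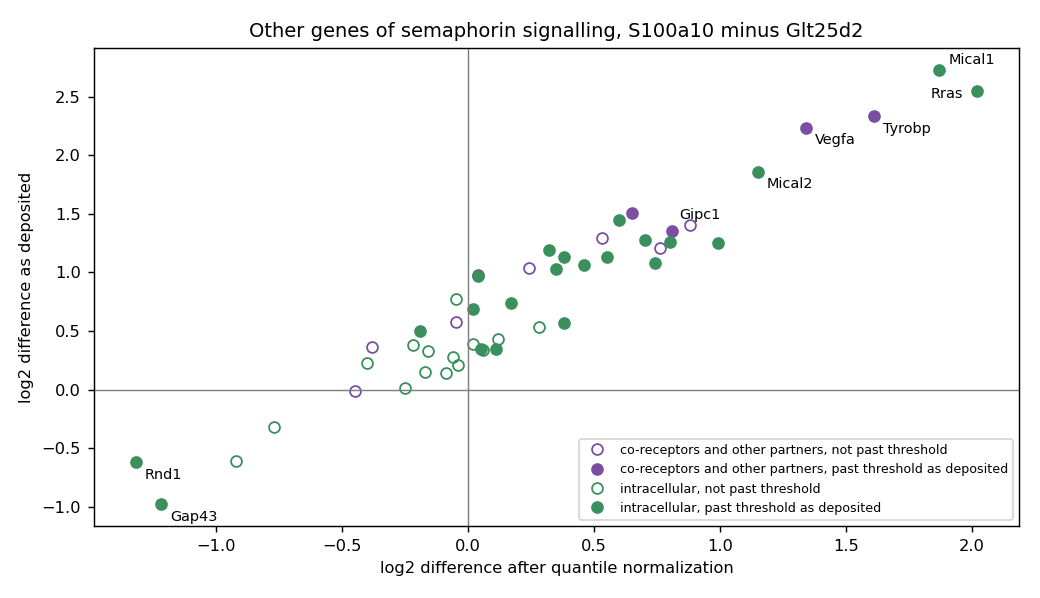
Log2 differences of S100a10 minus Glt25d2 for the 49 kept genes of the signalling list, as deposited (vertical axis) against after quantile normalization (horizontal axis), filled where they passed as deposited. Mical1, Rras, Tyrobp and Vegfa lie above 0 on both axes and Rnd1 and Gap43 below 0 on both, while the median of the list is 0.74 on the vertical and 0.12 on the horizontal axis.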

How the data were processed

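RNA from tagged ribosomes of mouse cortex was measured on 6 arrays, 3 for each line, after 2-cycle amplification from 15 ng and biotin labelling, per the labels. The authors deposited linear intensity values; GCRMA is named in the submitters' processing notes, without a version. The quantiles of the deposited arrays differ between the groups, so differences may carry a part set by scaling. The 64 control features among the 45101 on the array were not used. The platform annotation gives 1 gene symbol for 34945 of the remainder, more than 1 for 932 and none for 9160. All 32 member symbols were found in the RefSeq gene table, and 26 in its promoter table.

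Log2 intensities, with no pseudocount, were analysed for probe sets whose mean reached 50 in either group, a limit named in the series text. The model (lmFit and eBayes of limma 3.58.1, R 4.3.3) held the 2 groups, with 2-sided p-values adjusted over all 21291 probe sets kept (Benjamini-Hochberg). If no array of a group reached 50, a fold is a bound against 50, from the mean of the other group's log2 values. Members past the threshold are given array by array; of the signalling list the 8 largest differences among genes past the threshold are named, and genes named beyond that were chosen after their values were seen. Members and lists were chosen with earlier results of these data known. Alternatives were another filter, pseudocount, floor, scaling, prior, array weights, probe set rule or adjustment, a replicate block, and each array left out. Same-numbered arrays deviated from their group means with correlations of -0.452, 0.224 and -0.238, so the numbers were not taken to pair them. The titles call the samples biological replicates without naming animals, so p-values rest on the spread between these samples, and 3 arrays a group limit the precision. For Sema3f, Sema6c, Plxnb1 and Plxna4 all 3 deposited Glt25d2 values were the same, and for Sema6a, Sema6b and Sema4g 2 were. For these members the spread in Glt25d2 was not measured or only in part, so their SE and p-values may be too small. Tables were made with pandas 2.3.3 and numpy 2.4.6 under Python 3.11.15, and plots with matplotlib 3.10.9.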

Additional observations from a re-analysis of the deposited data

How the results depend on the processing

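Sema3b, Sema3d, Sema4c and Plxnd1 kept their direction and their side of the threshold under every alternative run for them. These were 19 for Plxnd1 and 18 for each of the others. Sema3b, Sema3d and Sema4c lay under 50 in every Glt25d2 array, so they were kept through their S100a10 level alone. The same holds for Sema4g, Plxnb2 and Plxna1, also called higher in S100a10, with Glt25d2 means of 34.7, 30.3 and 42.7. The filter that required both group means at 50 or more left all these genes out, so their calls were not tried under it. The members called higher in S100a10 under it were Plxnb1, Plxnd1, Sema3f, Sema6b and Sema6c. With all arrays as deposited, 7 semaphorins and 4 receptors were higher in S100a10 (44.4% of all genes), and 1 and 0 in Glt25d2 (4.5%). Requiring both group means at 50 or more left 3 of 12 semaphorins and 2 of 7 receptors higher in S100a10 (36.6% of all genes). Quantile normalization gave 3 semaphorins and 1 receptor higher in S100a10, and 1 and 1 in Glt25d2 (18.4% of all genes each way). Median centring gave 3 semaphorins and 3 receptors higher in S100a10, and 1 and 1 in Glt25d2 (16.4% and 31.3% of all genes). Without a filter, 2 semaphorins were higher in Glt25d2 (9.58% of all genes), with array weights 4 semaphorins and 1 receptor (7.61%), and averaging the probe sets of each gene 0 semaphorins (4.13%). Quantile normalization without Glt25d2 replicate 3 gave 3 semaphorins and 3 receptors higher in S100a10, and 8 and 2 in Glt25d2 (23.7% and 23.0% of all genes). Centring without that array gave 3 semaphorins and 3 receptors higher in S100a10, and 7 and 2 in Glt25d2 (19.8% and 38.3% of all genes). Leaving out each array in turn gave 6 to 9 semaphorins and 3 to 4 receptors higher in S100a10, and 1 to 4 and 0 to 1 in Glt25d2. The largest counts, except for receptors higher in S100a10, were those without Glt25d2 replicate 3. Over the same fits 35.2% to 55.0% of all genes were higher in S100a10 and 3.06% to 6.17% in Glt25d2. These shares too were largest without Glt25d2 replicate 3. The replicate block, although the numbers do not pair the arrays, gave 5 semaphorins and 4 receptors higher in S100a10 (35.3% of all genes), and Sema3f at 0.46 and Sema6b at 0.87 did not pass in it; not every array correlated best with its own number.

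Signs turned as follows, and the cause was not tested. After quantile normalization Sema7a was -0.087, Sema6d -0.67, Sema3f -0.29, Plxnb1 -0.051, Sema6c -0.42, Sema5a -0.25, Sema5b -0.24 and Plxnb3 -0.73. After centring Sema7a was -0.33, Sema6d -0.71, Sema3f -0.31, Sema6c -0.25, Sema5a -0.19, Sema5b -0.11 and Plxnb3 -0.59. Quantile normalization without Glt25d2 replicate 3 gave Sema4f -0.14, Sema7a -0.50, Sema6d -1.42, Sema3f -0.23, Sema3a -0.50, Plxna2 -0.25, Sema6b -0.044, Nrp2 -0.51, Sema4d -0.028, Sema6c -0.35, Sema5a -0.94, Sema5b -0.46 and Plxnb3 -0.52. Centring without that array gave Sema4f -0.47, Sema7a -0.78, Plxnc1 -0.25, Sema6d -1.59, Sema3f -0.29, Sema3a -0.59, Plxna2 -0.37, Sema6b -0.075, Nrp2 -0.47, Sema6c -0.23, Sema5a -0.84, Sema5b -0.34 and Plxnb3 -0.42. With array weights Sema6d was -0.94 and Sema5a -0.19, and the mean of both probe sets put Sema6a at 0.17. Leaving out 1 array at a time gave -1.13 to 0.36 for Nrp1 (above 0 without Glt25d2 replicate 1, at 0.35, or 2, and without S100a10 replicate 1, at 0.12), -0.10 to 0.056 for Plxna4 (above 0 without S100a10 replicate 1), -0.84 to 0.61 for Sema6d (below 0 without Glt25d2 replicate 3 or, at -0.021, S100a10 replicate 2), and -0.033 to 0.73 for Sema7a and -0.087 to 1.0 for Sema5a (below 0 without Glt25d2 replicate 3). Sema3a minus Sema3f was 0.47 to 0.98 with other arrays left out, -0.30 without Glt25d2 replicate 3, and -0.28 and -0.30 with quantile normalization or centring as well; Nrp1 minus Nrp2 stayed at -1.41 to -1.02.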
